A study of Mus musculus with 4 samples.

Results

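TCF/LEF factors and Groucho corepressors are 10 mouse genes in all, of which 4 encode the TCF/LEF DNA-binding proteins (Lef1, Tcf7, Tcf7l1 and Tcf7l2) and 6 the Groucho family (Tle1 to Tle6). They were taken by name from the platform annotation, using probe sets that name exactly 1 gene. This gave 20 probe sets for 9 of the 10 genes, out of 34945 probe sets for 18193 genes on the array, and Tcf7 was not analysed here. The cells were T29, a mouse thymic lymphoma line that the design text describes as Ikaros-deficient. All 4 samples carried the construct MigR1-MLER, through which an inducible dominant-negative Mastermind is expressed. For 24 h, 2 samples received 100 nM 4OHT, the tamoxifen metabolite that acts on oestrogen receptor fusions, and 2 received ethanol. Every sample came from this 1 line and carried the construct, so effects of the construct and other effects of 4OHT cannot be told apart. The labels do not say whether replicates were separate cultures, so the p-values reflect sample-to-sample spread that may be purely technical.

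Mastermind is the coactivator that the Notch and RBPJ complex needs to switch on its targets, so a dominant-negative form blocks Notch-dependent transcription. TCF/LEF proteins bind DNA through an HMG box. Together with β-catenin, the effector of Wnt signalling, they activate genes. Without it they recruit Groucho proteins, which bring in histone deacetylases and repress. Groucho proteins also serve HES and RUNX factors, which links them to Notch, since HES genes are Notch targets. In the thymus, TCF-1 (encoded by Tcf7) and LEF-1 drive early T-cell development. Tcf7l1 and Tcf7l2 were long called Tcf3 and Tcf4, names that now belong to E-protein genes.

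The authors made the values with RMA, as 1 log2 expression value per probe set and array. Where a gene had several probe sets, the one with the highest mean over the 4 arrays led. Genes whose lead mean was under 4.81, which 40% of the probe sets naming 1 gene fall below, were not tested. Arrays correlated at 0.995 within each group and at 0.983 to 0.987 between groups over the 11581 genes tested. For the 18S ribosomal RNA control, the log2 signal of the 3′ probe set over that of the 5′ one, a measure of RNA quality, was 0.90 and 0.82 on the 4OHT arrays, against 0.05 and 0.32 on the ethanol arrays. For the Actb control it was 0.43 and 0.45 with 4OHT and 0.40 and 0.49 with ethanol. For the Gapdh control it was -0.03 and -0.03 with 4OHT and -0.07 and 0.03 with ethanol. The part of RNA quality in the results was not tested. The Notch readouts Dtx1, Ptcra, Hes1 and Nrarp were all lower with 4OHT, at log2 changes of -3.41, -2.23, -1.39 and -1.44. Of the T-cell markers with a probe set, 7 of 8 were bright enough to test, and Cd5 was not. Their log2 levels summed over all 8 stood at 82.6 and 83.1 with 4OHT and 81.0 and 81.8 with ethanol, a sum in which opposite changes can offset. Of the 7 tested, 2 were called higher with 4OHT, Cd8a (log2 change 0.83) and Cd247 (0.68), and 1 lower, Cd3g (-0.57). Over all tested genes, 7.47% were called in either direction (limma adjusted p under 0.05).

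Reference sequence was available for promoter windows of 9 of the 10 genes, in RefSeq's GRCm38.p6 table, with Tle5 missing. A window runs from 250 bases before an annotated transcript start to a short way past it, and several genes have more than 1 start. Both strands were searched for the RBPJ core TGGGAA, the site of the factor that Notch and Mastermind act through, and for the TCF/LEF core TCAAAG. No window of these genes held both motifs. The RBPJ core was found in 5 of 16 windows, from 3 genes, and 25.6% of all windows hold it. The TCF/LEF core was found in 1 of 16 windows, an internal start of Lef1, against 16% of all windows. The matches are shown because they place the letters that these factors read relative to the genes measured below. Capitals mark the motif, and each stretch reads 5′ to 3′ on the gene's own strand.
Lef1, RBPJ core 39 bases into the outermost annotated transcript and 13 into the next, chr3:131110323-131110352, plus strand: gaggagaagcggTGGGAAggcgcaaccgct
Lef1, RBPJ core 44 bases into a transcript from a start further in, chr3:131112822-131112840, plus strand: tgagtacgcatcTGGGAAg
Lef1, TCF/LEF core 180 bases before an internal start, chr3:131156102-131156131, plus strand: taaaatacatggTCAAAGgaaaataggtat
Lef1, TCF/LEF core 120 bases before the same start, chr3:131156162-131156191, plus strand: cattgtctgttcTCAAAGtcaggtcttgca
Tcf7l1, RBPJ core on the opposite strand, 55 bases before the start, chr6:72789083-72789112, minus strand: tgctgggcccgcTTCCCAcagagccacgcc
Tle6, RBPJ core 7 bases into a transcript from an inner start, chr10:81597344-81597373, minus strand: aggagcagtgagTGGGAAggcggaaggcag
The first Lef1 match lies in windows of 2 neighbouring starts and is 1 site. These are matches of short letters, not measured binding.

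The comparison asks which of these genes differed between 24 h of 4OHT and 24 h of ethanol in cells that carry the construct. Of the 9 genes with a probe set, 5 were bright enough to test, and 4 of those 5 passed: Lef1 and Tle3 were lower with 4OHT, and Tle5 and Tle6 were higher. Over all tested genes, 3.57% were lower, 3.9% higher and 7.47% called in either direction (limma, Benjamini-Hochberg adjusted p under 0.05). Tcf7l1 did not pass, and Tcf7l2, Tle1, Tle2 and Tle4 were too dim to test. The Groucho family thus did not move as a block: of its 3 tested members, Tle3 fell while Tle5 and Tle6 rose. In a bulk sample, fewer cells of a type and less RNA per cell cannot be told apart. On the arrays themselves, 4 of the 5 tested members had groups that did not overlap, 2 with both 4OHT arrays above and 2 below. Over all tested genes the groups did not overlap in 56.9% (4OHT above in 26.7% and below in 30.2%), so separation of the arrays alone sets no gene apart. The median log2 change of the 5 tested members was 0.10, against -0.01 for all tested genes, with members on both sides of it.

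**Figure D1:**
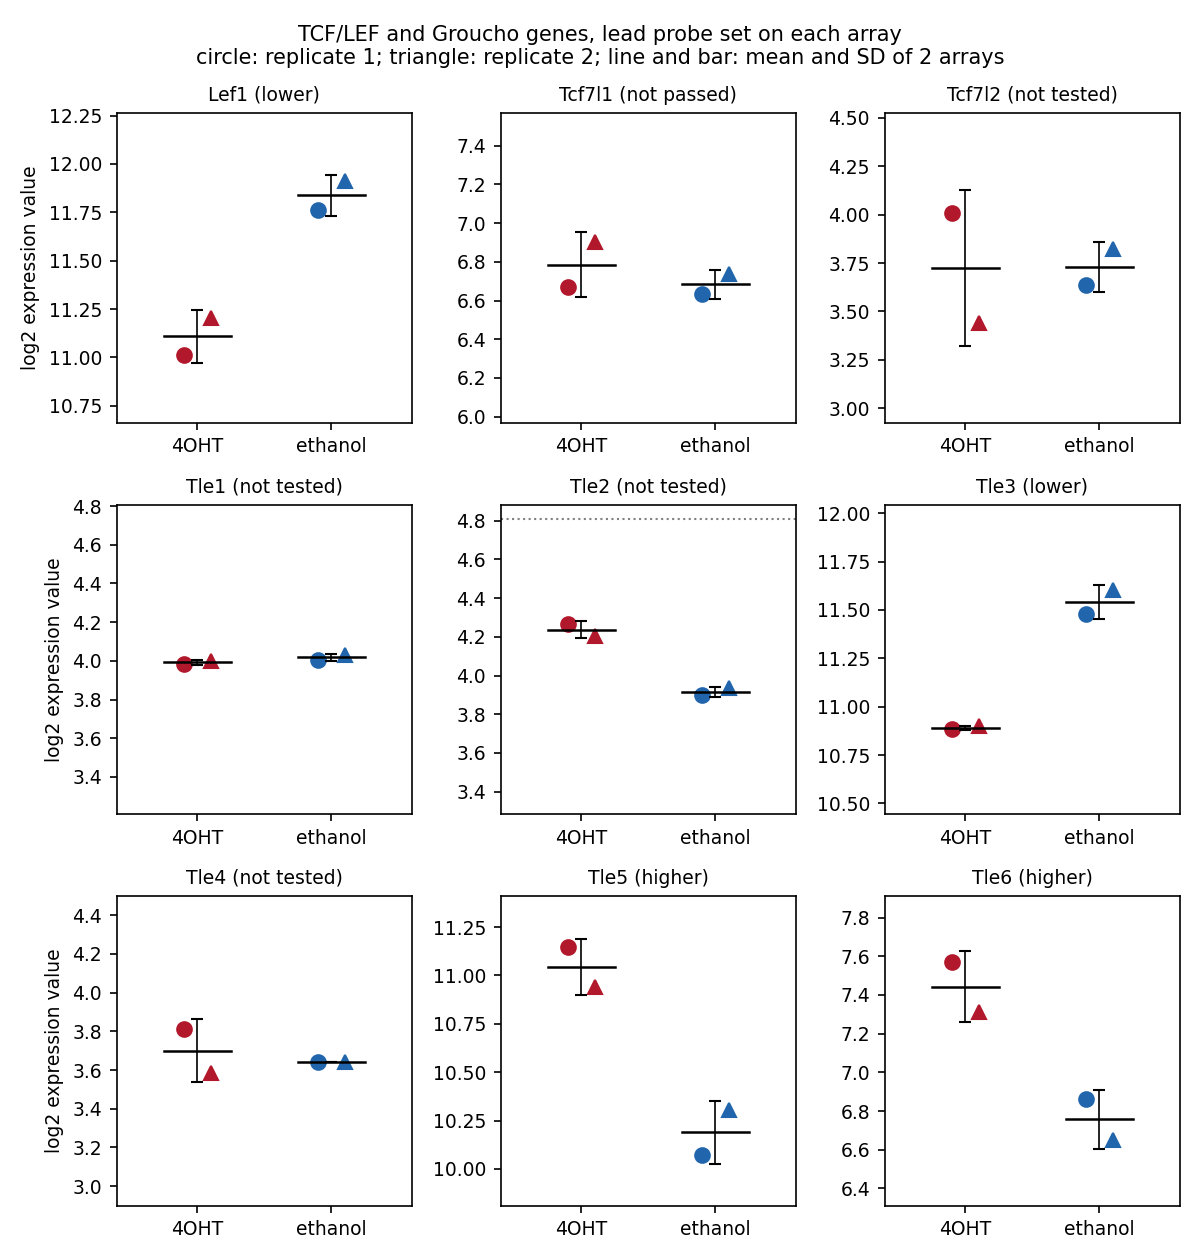
Lead probe set of each of the 9 genes on the 4 arrays, with the log2 expression value on the vertical axis and 4OHT left of ethanol; circles are replicate 1, triangles replicate 2, lines and bars the mean and SD of 2 arrays, and the dotted line is the testing floor of 4.81. Lef1 and Tle3 sit lower with 4OHT, Tle5 and Tle6 higher, without overlap.

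Lef1 encodes LEF-1, the TCF family member that acts beside TCF-1 in thymocytes. Its lead probe set (1454734_at) was at 11.01 and 11.20 on the 4OHT arrays, against 11.76 and 11.91 on the ethanol arrays. Both 4OHT values lay below both ethanol values, and the gap between the groups was wider than the spread within either. The mean was 11.11 ± 0.14 with 4OHT and 11.84 ± 0.10 with ethanol (SD, n = 2 each), 1.66-fold higher in ethanol (log2 change -0.73 ± 0.11 SE, 95% interval -1.004 to -0.45, limma adjusted p = 0.0268). Lef1 has 1 further probe set (1421299_a_at), which read 9.85 and 9.76 with 4OHT and 10.66 and 10.69 with ethanol. It moved the same way and by a little more, at -0.87 ± 0.10 SE (limma adjusted p = 0.0195 over all probe sets, where the lead had 0.0428). Both probe sets of Lef1 thus passed when every probe set on the array was tested. Among tested genes, 3.54% changed by more than Lef1 in either direction.

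Tcf7l1 encodes the TCF family member best known as a repressor in embryonic stem cells and skin. Its lead probe set was at 6.67 and 6.90 with 4OHT and 6.63 and 6.74 with ethanol, and the groups overlapped. The log2 change was 0.10 ± 0.11 SE (95% interval -0.18 to 0.38, adjusted p = 0.621), so a change as large as that of Lef1 in either direction lay outside the interval. The other Tcf7l1 probe set read 5.79 and 6.18 with 4OHT, against 5.63 and 5.76 with ethanol, at 0.29 (adjusted p = 0.415 over all probe sets). Its groups did not overlap, but the 4OHT arrays differed by more from each other than the nearer one did from ethanol. Tcf7l2 encodes the main TCF of the intestinal epithelium. Its 4 probe sets lay between 2.48 and 4.01 on every array, under the testing floor, and their changes were between -0.19 and 0.04. A change in Tcf7l2 was not detectable at this level.

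Tle3 is a full-length Groucho corepressor, with the WD40 domain that holds DNA-binding partners and the N-terminal domain through which these proteins form tetramers. Its lead probe set (1419655_at) was at 10.88 and 10.90 on the 4OHT arrays, against 11.48 and 11.60 on the ethanol arrays. The 4OHT arrays were close to each other and both were lower. Tle3 averaged 10.89 ± 0.01 with 4OHT and 11.54 ± 0.09 with ethanol (SD, n = 2 each; log2 change -0.65 ± 0.09 SE, 95% interval -0.88 to -0.42, adjusted p = 0.0229). The difference corresponds to a level 1.57-fold higher in ethanol, and 4.69% of tested genes changed by more.

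The other 3 probe sets of Tle3 were less even. Probe set 1449554_at read 8.72 and 8.74 with 4OHT, against 8.99 and 9.73 with ethanol. Probe set 1419654_at read 8.57 and 8.74 with 4OHT, against 8.93 and 9.63 with ethanol. In both the groups did not overlap and the changes were -0.63 and -0.62, nearly that of the lead, but ethanol replicate 2 stood well above ethanol replicate 1. Neither passed over all probe sets (adjusted p = 0.254 and 0.245). Probe set 1458512_at overlapped between groups, at 7.06 and 7.34 with 4OHT and 7.16 and 7.74 with ethanol. With the mean of the 4 probe sets in place of the lead, Tle3 was at -0.54 ± 0.18 SE and did not pass (adjusted p = 0.131).

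Tle5, formerly Aes, encodes a short Groucho protein that keeps the N-terminal domain but lacks the WD40 domain, and it can act against the full-length proteins. Its 1 probe set (1420619_a_at) was at 11.15 and 10.94 on the 4OHT arrays, against 10.07 and 10.30 on the ethanol arrays. All values with 4OHT were higher than all with ethanol. Tle5 averaged 11.04 ± 0.15 with 4OHT and 10.19 ± 0.16 with ethanol (SD, n = 2 each), a 1.81-fold rise (log2 change 0.85 ± 0.12 SE, 95% interval 0.54 to 1.17, adjusted p = 0.0251). It was the largest change among the 5 tested members, and 2.18% of tested genes changed by more. Its interval and that of Tle3 lie on opposite sides of 0.

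Tle6 is the most divergent Groucho gene and is best known from the maternal protein complex of mouse oocytes. Its 1 probe set (1448727_at) was at 7.57 and 7.31 with 4OHT, against 6.86 and 6.65 with ethanol. Again the groups did not overlap. Tle6 averaged 7.44 ± 0.18 with 4OHT and 6.76 ± 0.15 with ethanol (SD, n = 2 each), a 1.61-fold rise (log2 change 0.69 ± 0.13 SE, 95% interval 0.36 to 1.01, adjusted p = 0.0403). Of the 4 calls it was the closest to the threshold. It was lost with quantile normalization (0.63, adjusted p = 0.0554) and when all probe sets were tested (adjusted p = 0.068).

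Tle1, Tle2 and Tle4 encode the other full-length Groucho proteins, and their probe sets were all under the testing floor. The 2 of Tle1 lay between 2.77 and 4.03 on every array, and the 3 of Tle4 between 2.91 and 3.81. The lead of Tle4 had the same value, 3.64, on both ethanol arrays. Tle2 was at 4.27 and 4.20 with 4OHT, against 3.90 and 3.93 with ethanol, a difference of 0.32 with no overlap. In a fit without the filter Tle2 had an adjusted p of 0.13. The 4 untested genes (these 3 and Tcf7l2) had adjusted p-values from 0.13 to 0.993 in that fit, where 4.11% of 18193 genes were called.

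**Figure D2:**
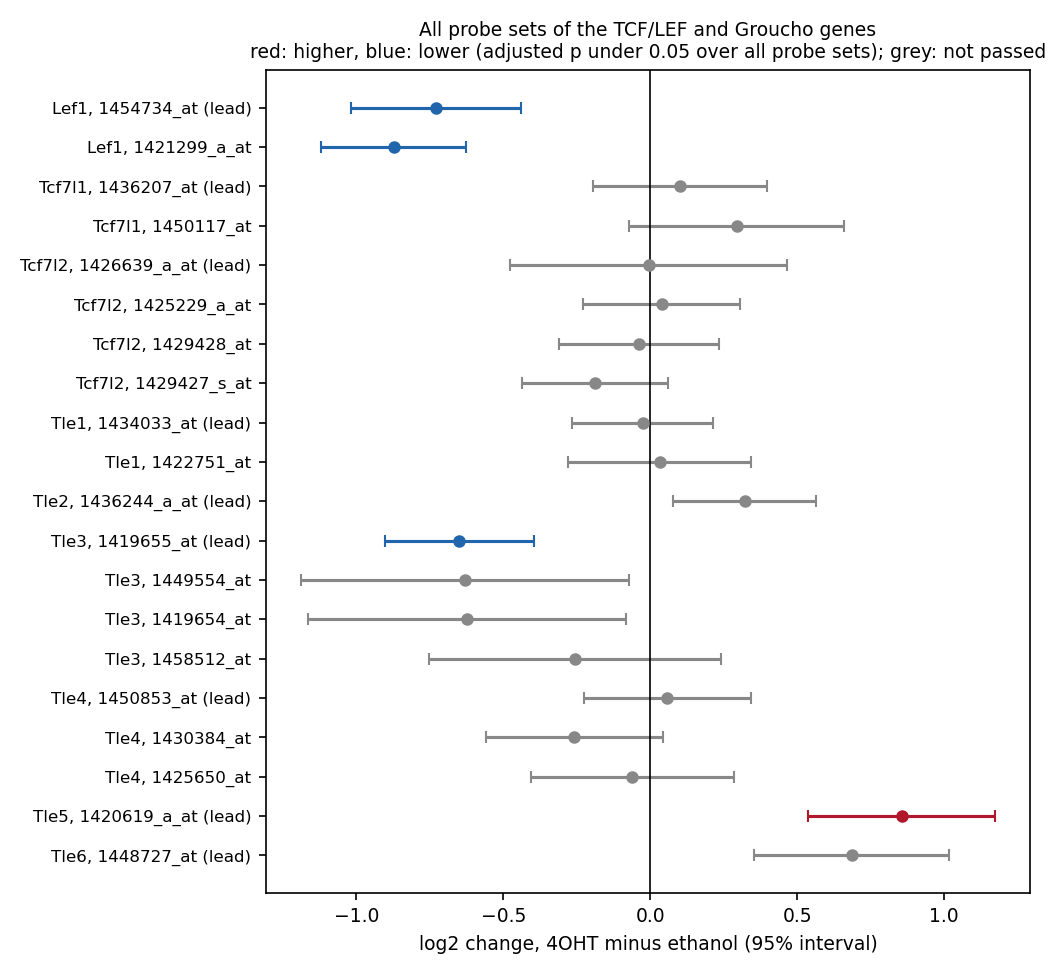
Log2 change, 4OHT minus ethanol, with its 95% interval for all 20 probe sets of the 9 genes, from a limma fit over all probe sets. Blue points passed as lower (both of Lef1 and the lead of Tle3), the red point passed as higher (Tle5), and grey points did not pass, Tle6 included.

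In the fit over all 45037 non-control probe sets, 4 of the 20 probe sets passed, 3 lower and 1 higher, where 2.09% of all probe sets were called (0.635% lower and 1.46% higher). The 4 gene calls rested on all 4 arrays. With any 1 array removed, the fit keeps 1 residual degree of freedom, and none of the members was called in any of these 4 fits, while the 4 kept their direction. The adjusted p ranged from 0.0776 to 0.13 for Lef1 and from 0.0737 to 0.123 for Tle3. For Tle5 it ranged from 0.0504 (without ethanol replicate 2) to 0.127 (without 4OHT replicate 1), and for Tle6 from 0.0882 to 0.169. The log2 change ranged from -0.83 to -0.63 for Lef1, from -0.71 to -0.59 for Tle3, from 0.74 to 0.97 for Tle5 and from 0.56 to 0.82 for Tle6. Fewer genes were called at all in those fits, 9 to 125 higher and 12 to 66 lower over the table.

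**Figure D3:**
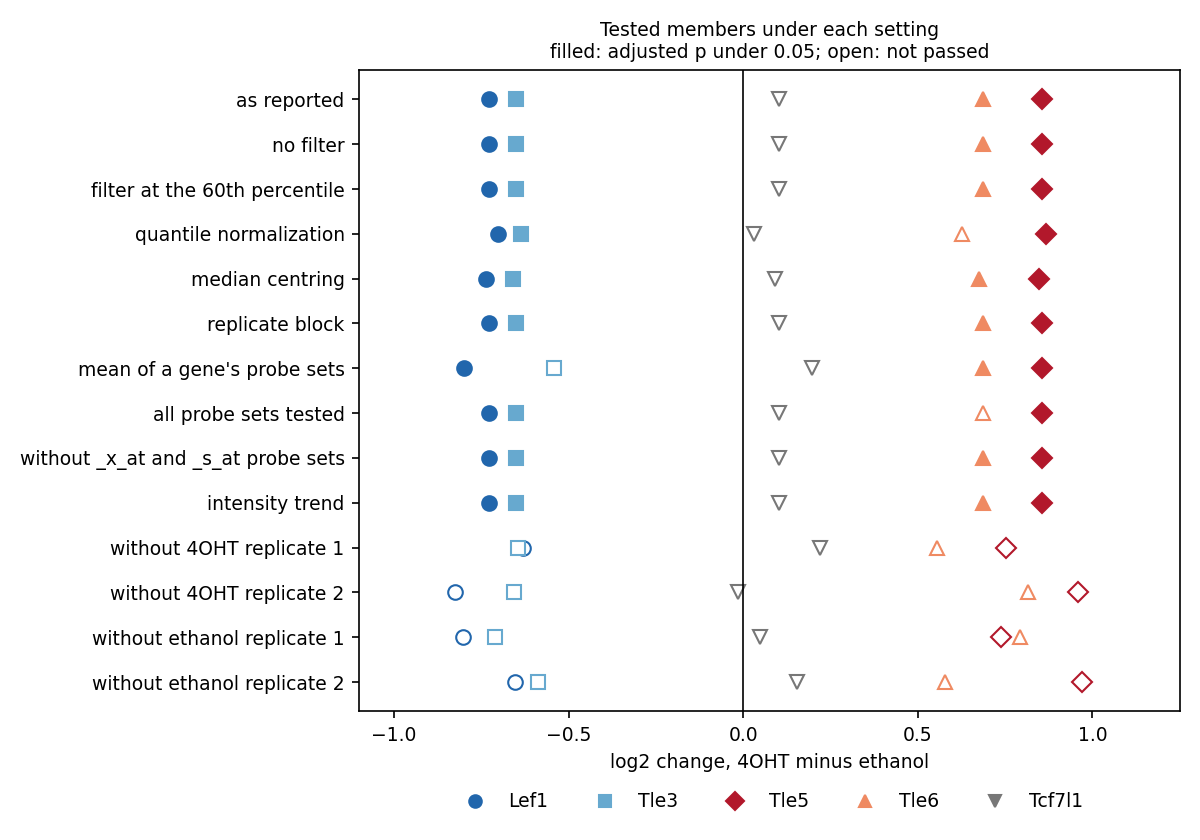
Log2 change, 4OHT minus ethanol, of the 5 tested members as reported and under 13 other settings, with filled symbols where the adjusted p was under 0.05. Only scaling, averaging of probe sets and leaving out an array alter the log2 change itself, and the other settings alter the p-value alone. Lef1 and Tle3 stay below 0 and Tle5 and Tle6 above 0 in every setting drawn, Tcf7l1 crosses 0 without 4OHT replicate 2, and all symbols are open when an array is left out.

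Tle5, Tle2 and Tle6 follow each other on chromosome 10 with no other protein-coding gene between them in the RefSeq order. Whether any probe set lies in a stretch shared between these genes was not determined. Tle5 and Tle6 were called higher, and Tle2 was not tested. Both 4OHT arrays lay above both ethanol arrays in all 3, as they did in 26.7% of all tested genes, a share that leaves out dim genes such as Tle2. Whether the locus changed as a unit was not tested. Of their nearest neighbours, 4 were tested and 0 passed, with 0 at an unadjusted p under 0.05. Gna11, a G-protein subunit gene next to Tle5, was at 8.70 and 8.53 with 4OHT and 8.65 and 8.64 with ethanol (log2 change -0.03, 95% interval -0.27 to 0.21, adjusted p = 0.872). Sirt6, a deacetylase gene next to Tle6, was at 7.50 and 7.42 with 4OHT and 7.53 and 7.51 with ethanol (log2 change -0.07, 95% interval -0.28 to 0.15, adjusted p = 0.677). These neighbours were looked up after the values of the members were known.

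The 5 tested genes with a profile over the 4 arrays most like that of Lef1 were Txnrd3, Sh3gl3, Hsph1, Tma16 and Mpzl3. Likeness was the Euclidean distance between profiles centred on their means, over 11050 genes, without those that carry only a clone or predicted name. The distances were 0.048 to 0.081 log2 units. Each fell with 4OHT, which the choice by likeness to Lef1 fixed in advance, at log2 changes of -0.69, -0.67, -0.69, -0.75 and -0.70. Txnrd3, a thioredoxin reductase gene, read 6.36 and 6.60 with 4OHT, against 7.11 and 7.24 with ethanol. Hsph1, a heat shock protein gene, read 10.12 and 10.28 with 4OHT, against 10.86 and 10.92 with ethanol. With 4 arrays, many genes share a profile of this shape, and the distance is a description.

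The lists of the Wnt pathway around these factors are set beside the 7.47% of all tested genes called in either direction. Of the 15 genes for Dishevelled, the β-catenin destruction complex and its regulators, 0 passed in limma, and 0 had an unadjusted p under 0.05. Their median was 0.08 and their changes lay between -0.16 and 0.24. Gsk3b, a kinase gene of that complex, was at 0.24 ± 0.15 SE (adjusted p = 0.364), and Tnks, which encodes an axin-modifying enzyme, at 0.20 (adjusted p = 0.432). Dvl1, a Dishevelled gene, was at -0.16 (adjusted p = 0.398), and Fbxw11, a ubiquitin ligase subunit gene for β-catenin, at 0.11 (adjusted p = 0.504). Among 12 tested genes for β-catenin and its cofactors, 1 was higher and none lower, with a median of 0.08. Ctnnb1, β-catenin itself, read 12.48 and 12.64 with 4OHT and 12.60 and 12.43 with ethanol, a change of 0.05 ± 0.11 SE with overlap. The called gene was Ctnnbip1, whose product (ICAT) blocks β-catenin from TCF proteins. It read 7.61 and 7.70 with 4OHT, against 6.997 and 7.22 with ethanol, a 1.46-fold rise (adjusted p = 0.0474). Bcl9, a β-catenin coactivator gene, was at 0.47 (adjusted p = 0.124), Tbl1xr1 at 0.27 (adjusted p = 0.273) and Chd8, a chromatin remodeller gene, at 0.16 (adjusted p = 0.452). The Ctnnbip1 call was lost with quantile normalization, median centring, no filter, all probe sets tested and without _x_at and _s_at probe sets. It was also lost at an adjusted p under 0.01 and without any 1 array, where the log2 change was 0.43 to 0.66.

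Of 43 genes for Wnt ligands, receptors and their regulators, 23 were bright enough to test. Here 1 was lower and 1 higher, with a median of -0.09. Fzd5, a Frizzled receptor gene, read 6.89 and 6.53 with 4OHT, against 7.81 and 7.54 with ethanol, and its level was 1.96-fold higher in ethanol (log2 change -0.97 ± 0.16 SE, adjusted p = 0.0305). Wnt8b, a ligand gene, read 5.83 and 6.02 with 4OHT, against 5.34 and 5.23 with ethanol (0.64 ± 0.10 SE, adjusted p = 0.0305). It was dim, and a stricter filter, at the 60th percentile, removed it from the test. Its call was also lost with the mean of its 3 probe sets and when all probe sets were tested. Fzd3, another Frizzled gene, was at 0.46 (adjusted p = 0.0571), and Wnt4, a ligand gene, at -0.37 (adjusted p = 0.0626). Without any 1 array neither call held, at an adjusted p from 0.0609 to 0.107 for Fzd5 and from 0.0947 to 0.115 for Wnt8b.

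Of 11 tested genes that are used as Wnt or TCF targets in various tissues, 2 were lower and 1 higher, with a median of 0.24. Nkd1, a feedback inhibitor that binds Dishevelled, read 5.86 and 6.04 with 4OHT, against 6.88 and 7.06 with ethanol. Its level was 2.03-fold higher in ethanol (log2 change -1.02 ± 0.11 SE, adjusted p = 0.0151). Axin2, the most widely used target of β-catenin and TCF, read 8.41 and 7.87 with 4OHT and 7.94 and 8.25 with ethanol. Its arrays overlapped and its change was 0.05 (95% interval -0.47 to 0.56), and it was picked out after its value was seen. Myc, which Notch also drives, read 10.96 and 11.12 with 4OHT, against 11.63 and 11.94 with ethanol (-0.74 ± 0.13 SE, adjusted p = 0.0358). Cd44, an adhesion receptor gene, read 5.84 and 6.10 with 4OHT, against 4.80 and 4.72 with ethanol. Both ethanol values were under the testing floor (1.21 ± 0.12 SE, adjusted p = 0.0119). Cd44 was not called with a filter at the 60th percentile or with the mean of its 4 probe sets. Tnfrsf19, a TNF receptor family gene, read 4.59 and 4.57 with 4OHT, both under the testing floor, against 4.995 and 5.26 with ethanol, and did not pass (adjusted p = 0.0506). Without 4OHT replicate 1 or 4OHT replicate 2 no gene of the list was called. Without ethanol replicate 1 Nkd1 and Cd44 were, and without ethanol replicate 2 Cd44 was.

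Of 17 genes for factors that recruit Groucho, 16 had a probe set and 7 were bright enough to test. Of these, 1 was lower and 6 did not pass, at a median of -0.09. The lower gene was Hes1, the Notch-induced repressor that works through Groucho. It read 7.30 and 7.20 with 4OHT, against 8.77 and 8.52 with ethanol, 2.62-fold higher in ethanol (adjusted p = 0.00945). Its call was lost without 4OHT replicate 1 or 4OHT replicate 2 (adjusted p up to 0.0686). Runx1, a core T-cell and Groucho-binding factor gene, was at 0.24 ± 0.13 SE (adjusted p = 0.316). Hes7, a relative of Hes1, was at -0.16 (adjusted p = 0.34), and Pax5, the B-cell factor gene, at -0.10 (adjusted p = 0.498), both with levels near 5.

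Genes linked to TCF-1 in T cells are set beside the 3.9% of all tested genes called higher and 3.57% lower. The list was chosen with earlier results of these data known. Its genes moved both ways, with 3 of 12 tested higher and 3 lower, at a median of 0.39. Among those lower were Il2ra, an interleukin-2 receptor chain gene that Notch also drives, at -2.11 ± 0.25 SE (adjusted p = 0.0171), and Ets2, a transcription factor gene, at -0.47 (adjusted p = 0.0478). Slamf6, a surface receptor gene that marks TCF-1 positive T cells, read 7.45 and 7.50 with 4OHT, against 8.43 and 8.44 with ethanol. Its arrays were tight within each group (log2 change -0.96 ± 0.08 SE, adjusted p = 0.01). Among those higher, Tox, a nuclear factor gene of T-cell selection, read 9.42 and 9.55 with 4OHT, against 8.86 and 8.80 with ethanol (0.65 ± 0.09 SE, adjusted p = 0.0238). Bcl6, a repressor gene, was at 0.83 (adjusted p = 0.0266). Id3, whose product blocks E proteins, was at 0.73 (adjusted p = 0.0469). Of these 3, Id3 was called only without ethanol replicate 2 when 1 array was left out, and Tox and Bcl6 were called in none of the 4 fits. Of the 3 lower genes, the number called was 2 when either ethanol array was left out, 1 when 4OHT replicate 2 was and 0 when 4OHT replicate 1 was.

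**Figure D4:**
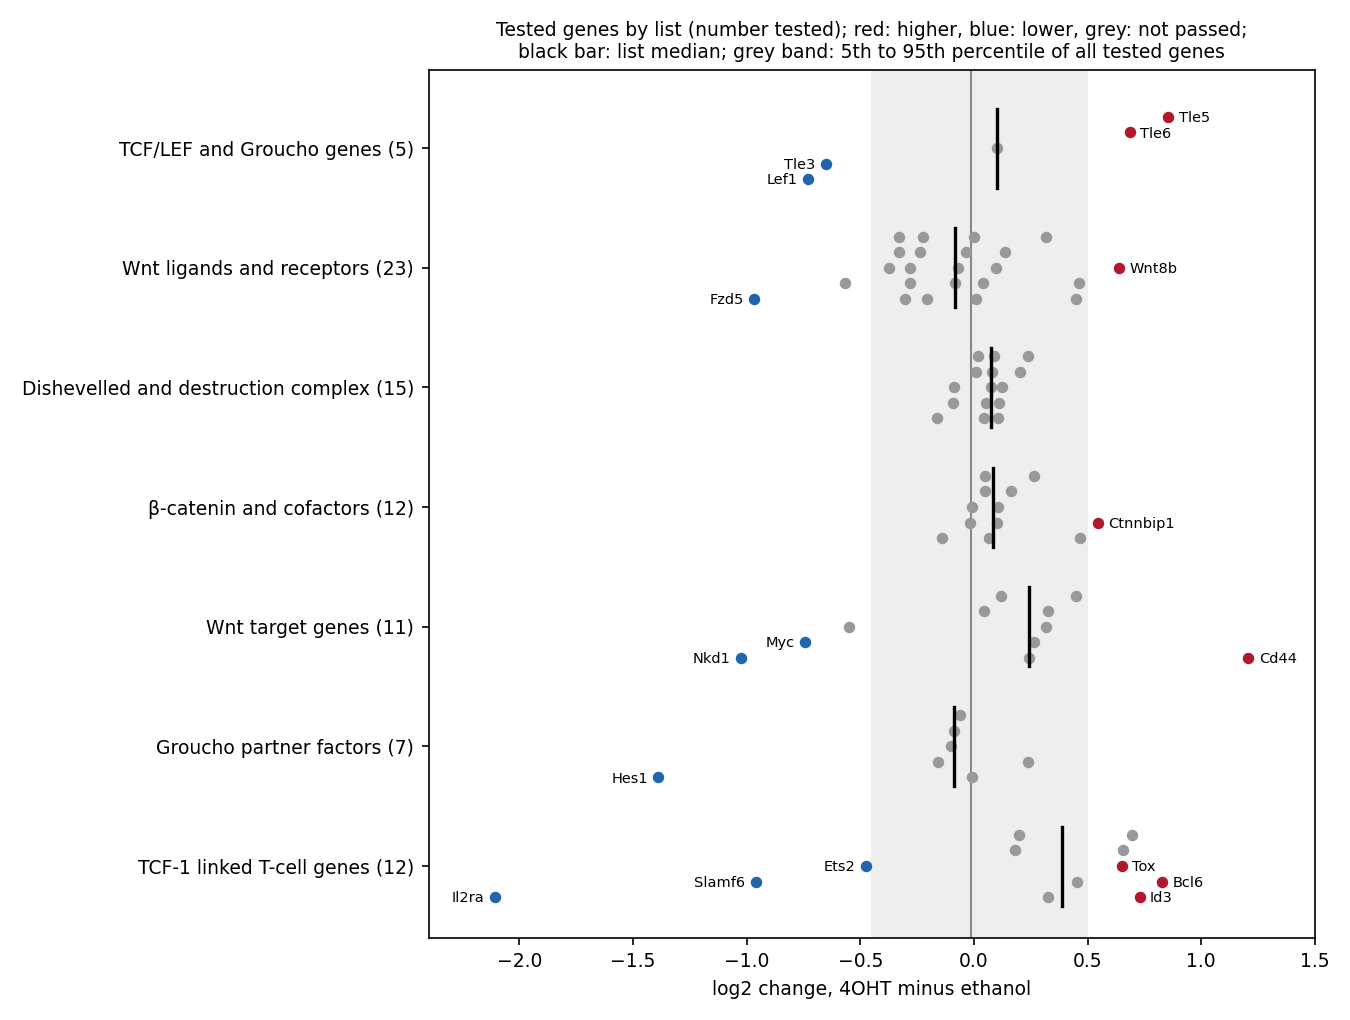
Log2 change, 4OHT minus ethanol, of every tested gene in the member set and 6 lists, with the number tested in parentheses; red points were called higher, blue lower, grey did not pass, black bars are list medians and the grey band spans the 5th to 95th percentile of all tested genes (-0.45 to 0.50). The destruction complex genes all lie inside the band, while 4 of the 5 tested members lie outside it.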

How the data were processed

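RNA was measured on 1-colour Affymetrix arrays, 2 with 4OHT and 2 with ethanol. The authors deposited log2 values, 1 per probe set and array, made with RMA per the submitters' processing notes, which give no version. The log2 scale was read from the values (2.25 to 14.6). Neither a detection call nor a depth comes with such values, so the number of arrays limits the precision. Of 45101 probe sets, 64 were controls. Genes were named from the platform annotation (204 probe sets had no match in RefSeq GRCm38.p6, and no symbol changed). The gene table gave only names and gene order.

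The comparison used limma 3.58.1 (lmFit and eBayes in R 4.3.3, all arrays, no block) on 11581 genes. The Benjamini-Hochberg adjustment covered all of them, and genes under 0.05 were called. The fit was tested on simulated data. Lists are described by counts and medians, without set tests. Named were all members, up to 4 tested genes per list (called ones first, then by adjusted p, and all called ones), 5 genes nearest Lef1 and 4 Notch readouts. Members and lists were chosen with earlier results of these data known. Alternatives covered the filter, scaling, replicate block, each array left out, probe set choice, intensity trend and threshold.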

Additional observations from a re-analysis of the deposited data

How the results depend on the processing

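Of 83 recomputed member changes, 82 kept their direction. Many of these could not move. The filters, replicate block, intensity trend, thresholds, all probe sets and removal of _x_at and _s_at probe sets left each lead value as it was. Only scaling, averaging of probe sets and leaving out an array could change a direction. The exception was Tcf7l1, which ranged from -0.017 without 4OHT replicate 2 to 0.22 without 4OHT replicate 1. Members called higher numbered 2 as reported, 1 with quantile normalization, 1 with all probe sets tested and 0 at an adjusted p under 0.01, where 0 were called lower. Members called lower numbered 1 when probe sets were averaged per gene. Without any 1 array, 0 members were called in either direction. The labels do not say that replicate numbers mark a shared culture or day. Deviations of same-numbered arrays from their group means correlated at 0.34. With the replicate block, 1104 genes were higher and 1031 lower, and the 4 member calls held (adjusted p from 0.00122 for Lef1 to 0.00223 for Tle3).

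Over all genes, 853 were higher and 824 lower at an adjusted p under 0.1, and 24 and 22 under 0.01. With an intensity trend, 663 were higher and 636 lower. Leaving out 1 array gave 9 to 125 higher and 12 to 66 lower. Wnt ligands and receptors called higher numbered 0 with a filter at the 60th percentile, the mean of probe sets, all probe sets or the 0.01 threshold, and 3 with the block or the 0.1 threshold. Those lower numbered 2 with quantile normalization or the 0.1 threshold, 3 with the block and 0 at 0.01. Leave-one-out gave 0 and 0. For β-catenin cofactors called higher it was 2 with the block and 0 with no filter, quantile normalization, median centring, all probe sets, no _x_at or _s_at probe sets or the 0.01 threshold, and 0 without any 1 array. Wnt targets called higher numbered 0 with the 60th percentile filter, the mean of probe sets or 0.01, 3 with the block or 0.1, 2 with the trend, and 0 to 1 without 1 array. Those lower numbered 1 with the 60th percentile filter or all probe sets, 0 at 0.01, and 0 to 1 without 1 array. Groucho partner factors called lower numbered 0 to 1 without 1 array. TCF-1 linked genes called higher numbered 6 with the block, 5 with the trend or 0.1, 0 at 0.01, and 0 to 2 without 1 array. Those lower numbered 0 at 0.01 and 0 to 2 without 1 array. Where the alternative did not change the genes or arrays tested, the cause was not tested. Without a detection call, the values do not show whether the 4 dim members were above background, and their changes were tested only in the fits without the filter and over all probe sets.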

Other observations

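Markers of other cell types were mostly under the testing floor. Bright enough to test were 1 of 5 B-cell, 0 of 3 NK-cell, 2 of 5 myeloid, 1 of 2 erythroid and 2 of 6 stromal, epithelial or endothelial genes with a probe set. Of these 6 genes, 0 passed in limma and 2 had an unadjusted p under 0.05. These were Cd14, a monocyte receptor gene, at 5.99 with 4OHT and 6.36 with ethanol (log2 change -0.37, adjusted p = 0.0616), and Epcam, an epithelial adhesion gene, at 5.51 with 4OHT and 5.74 with ethanol (log2 change -0.23, adjusted p = 0.178). Pdgfrb, a receptor gene of mesenchymal cells, was at 8.14 and 8.57 with 4OHT and 8.65 and 8.65 with ethanol (log2 change -0.29, adjusted p = 0.295). Itgam, a myeloid integrin gene under the testing floor by its mean, was at 4.83 and 4.79 with 4OHT and 4.10 and 3.96 with ethanol (log2 change 0.77, limma adjusted p = 0.0165 in the fit without the filter). It was the only one of the markers under the floor with an adjusted p under 0.05 in that fit, and it moved the other way from Cd14. These genes were picked out after their values were seen, and their part in the changes of the TCF/LEF and Groucho genes was not tested.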
